A study of Bos taurus with 16 samples.

Results

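Prostaglandin F2 alpha (PGF2A) given alone to cultured bovine luteal cells was compared with no added treatment. The comparison used 8 of the 16 samples of the study, 4 control (CON) and 4 PGF2A samples numbered 1 to 4, and 14122 of the 18705 genes listed, namely those that reached a normalized count of 10 in 4 or more of the 16 samples. The cells were primary mixed luteal steroidogenic cells of Bos taurus from corpora lutea of days 10 to 12 of the estrous cycle, a stage at which, per the labels, the gland works fully and has not met its first pulses of PGF2A. After a night to attach, they were kept for 24 h in medium with luteinizing hormone (LH) at 10 ng/mL, which the controls received too. The PGF2A samples had 10 ng/mL PGF2A in addition. The other 8 samples had interferon tau (IFNT) at 1 ng/mL, alone (IFNT) or together with 10 ng/mL PGF2A (IFNT+PGF2A), and serve below as samples in which the same agent was tested separately. Material from 3 replicate wells went into each sample.

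The corpus luteum is the gland that makes progesterone after ovulation. PGF2A from the uterus ends its life in ruminants when no embryo is present, and IFNT from the conceptus is the signal that prevents this. The PGF2A receptor, encoded by PTGFR and most abundant on large luteal cells, couples through Gq to phospholipase C, which releases calcium and activates protein kinase C, and from there the mitogen-activated protein kinase (MAPK) cascade. In the gland, the known responses are a rapid burst of immediate early genes, a loss of progesterone synthesis and, later, remodelling of matrix and vessels.

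Levels are read counts per gene divided by the authors' size factor of the sample (normalized counts). They are not corrected for gene length, so they compare samples and not genes. Changes are log2 differences of normalized count + 0.5, with the standard error (SE) and a p-value from limma, adjusted by the Benjamini-Hochberg method over all 14122 genes. A gene is called when the adjusted p is under 0.05. The replicate number was a term of the fit, so that each PGF2A sample was set against the control of its own number. The 8 libraries held 23786067 to 25085501 reads assigned to genes, and 16315 to 16421 genes had at least 1 read.

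After 24 h of PGF2A few transcripts passed the test. Of 14122 genes, 23 were called (0.163%), 16 higher (0.113%) and 7 lower (0.0496%). Each of the 23 moved the same way in all 4 same-number pairs, with adjusted p-values from 0.0088 to 0.0499. The calls rest on the same 4 differences, so 1 direction is largely built in. Over all tested genes, 9.25% were higher and 10.6% lower in 4 of 4 pairs. The rises included CCND1, DUSP5, HBEGF, MMP3, CD24, SPP1 and NPTX2, and the falls CLDN11, SCG2, GSTA2, CHI3L1 and TNN. Of the 23, 6 differed by 2-fold or more. With the same terms on recovered reads, edgeR called 28 genes (0.198%) and DESeq2 102. Limma called 8 without the intensity trend and 81 on the 8 control and PGF2A samples only. The count thus depends on the test and the variance model, and also on the pairing and on particular numbers. Without the replicate term limma called 0 genes (0.0%), and 155 genes (1.1%) had an unadjusted p under 0.05, against 866 (6.13%) with it. Leaving out number 1 or number 2 gave 0 calls, leaving out number 3 gave 4, and leaving out number 4 gave 96, which included all 23.

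**Figure D1:**
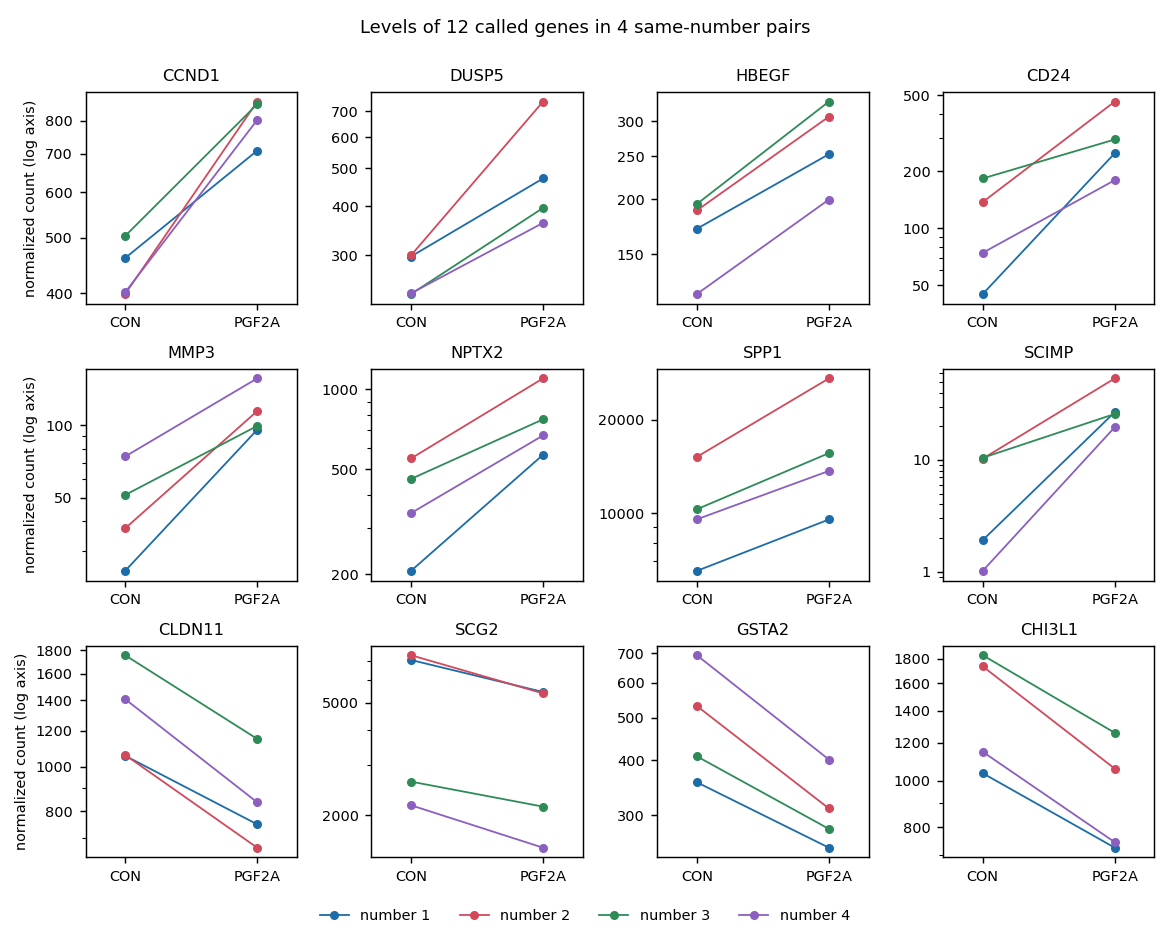
Normalized counts (log axis) of 12 of the 23 called genes in control (CON) and PGF2A samples; each line joins the 2 samples of 1 number. Every line slopes the same way within a panel, while the starting levels differ between numbers, as for SCG2, where the controls run from 2168 to 7349.

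The called genes of growth factor signalling and its cell cycle targets were CCND1, DUSP5 and HBEGF. CCND1 encodes cyclin D1, the partner of the CDK4 and CDK6 kinases in G1. Its level was 461, 399, 503 and 402 in controls 1 to 4 and 709, 863, 854 and 802 in PGF2A samples 1 to 4, so the lowest PGF2A sample lay above the highest control. The change was 0.87 (SE 0.12, adjusted p = 0.021), a 1.83-fold rise. DUSP5 encodes a nuclear phosphatase that switches off the MAPK ERK. It stood at 298, 299.8, 239 and 239.9 in controls and 471, 741, 396 and 363 with PGF2A, again without overlap (change 0.82, SE 0.12, adjusted p = 0.023). HBEGF encodes a membrane-anchored ligand of the EGF receptor. It stood at 171, 189, 195 and 122 in controls and at 253, 308, 333 and 199.7 with PGF2A (change 0.69, SE 0.11, adjusted p = 0.031); the lowest PGF2A sample, number 4, lay only just above the highest control.

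The other MAPK feedback genes, Gq pathway genes and immediate early genes passed no adjusted threshold, apart from DUSP5. Among 22 tested genes of the DUSP, Sprouty and related feedback group, 1 was called, where 0.163% of all genes were. Of the 22, 7 were higher and 1 lower at an unadjusted p under 0.05, against 3.24% and 2.89% of all genes. They include ERRFI1, an inhibitor of the EGF receptor (change 0.41, adjusted p = 0.17), and PHLDA1 (0.37, adjusted p = 0.11). Of 36 immediate early genes, 0 were called, 11 were higher and 0 lower at an unadjusted p under 0.05, and 33 lay above 0, as did 48.5% of all tested genes. Their median change was 0.13, against a median of -0.004 over all tested genes. FOS was at 1085, 1303, 1451 and 1273 in controls and 1307, 1592, 1484 and 1592 with PGF2A (change 0.23, adjusted p = 0.78), so the groups overlapped. NR4A1 was higher in 4 of 4 pairs (change 0.37, adjusted p = 0.55). EGR1 was higher in numbers 1, 2 and 4 and slightly lower in number 3 (change 0.22, adjusted p = 0.81), and ATF3 gave 0.21 (adjusted p = 0.999). The samples were taken at 24 h, and no earlier time was measured.

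In the EGF family list 2 of 12 tested members were called, where 0.163% of all genes were. Besides HBEGF, this was CD24, a mucin-like surface glycoprotein that is in the list but not itself a member of the family. CD24 stood at 45.0, 137, 183 and 74.2 in controls and 248, 464, 293 and 179 with PGF2A (change 1.54, SE 0.27, adjusted p = 0.0499). The groups overlapped, with control 3 above PGF2A sample 4, and the rise ran from 0.68 in number 3 to 2.45 in number 1. The call of CD24 ended without a filter on low values (adjusted p = 0.061), with the filter at 50 (0.057), without the intensity trend (0.10) and with robust shrinkage (0.052). That of TCHHL1 ended without a filter (0.061) and without the trend (0.085). The ligands EREG (change 0.74, adjusted p = 0.57) and NRG1 (0.57, adjusted p = 0.24) were higher in 4 of 4 pairs without passing the test. Over the 12 genes, 5 were higher and 0 lower at an unadjusted p under 0.05, against 3.24% and 2.89% of all genes. The median change was 0.15. Without number 2 it was 0.39, and without number 4 it was 0.03.

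Matrix and secreted proteins moved in both directions. MMP3 encodes stromelysin, a matrix metalloproteinase. It stood at 24.9, 37.4, 51.4 and 74.2 in controls and 95.8, 114, 99.3 and 156 with PGF2A, with no overlap (change 1.39, SE 0.19, adjusted p = 0.021). SPP1, the secreted integrin ligand osteopontin, stood at 6511, 15163, 10285 and 9545 in controls and 9533, 27146, 15594 and 13666 with PGF2A (change 0.63, SE 0.10, adjusted p = 0.030). Number 1 was lowest in both groups, and its PGF2A sample lay below 3 of the 4 controls. The groups of SPP1 thus overlapped, with means of 10376 in controls and 16485 with PGF2A. NPTX2, a secreted pentraxin first described in neurons, stood at 206, 548, 459 and 341 in controls and 566, 1101, 771 and 669.8 with PGF2A. It had the smallest adjusted p of the comparison together with CLDN11 (change 1.05, SE 0.12, adjusted p = 0.0088), and it remained called without number 3.

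Among the matricellular and angiogenic genes, 2 of 32 tested were called higher (SPP1, NPTX2) and 2 lower, against 0.113% and 0.0496% of all genes. The first of the lower genes, TNN, encodes the matrix glycoprotein tenascin N. It stood at 8120.3, 11021, 5789 and 6645 in controls and 5499, 7741, 4741 and 4898 with PGF2A (change -0.45, SE 0.06, adjusted p = 0.021). CHI3L1, a secreted chitinase-like protein, stood at 1037, 1733, 1829 and 1149.8 in controls and 725, 1060.3, 1259 and 745 with PGF2A (change -0.60, SE 0.10, adjusted p = 0.031). Both gave overlapping groups and fell in each number. The angiogenic and vasoactive factors often discussed for this gland did not pass the test: the difference was 0.11 (SE 0.13) for VEGFA and 0.07 (SE 0.13) for EDN1, both with adjusted p = 0.999, and 0.30 (adjusted p = 0.82) for FGF2.

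Of 32 tested matrix proteases and inhibitors, MMP3 alone was called, where 0.163% of all genes were. Of the 32, 8 were higher and 0 lower at an unadjusted p under 0.05, against 3.24% and 2.89% of all genes. ADAMTS1, a protease that cuts proteoglycans, narrowly missed the threshold at 0.0554: its levels were 1982, 2154, 2457 and 2713 in controls and 2882, 3011, 3109.9 and 3482 with PGF2A, without overlap. MMP1 (change 0.58) and MMP12 (0.78) were each higher in 4 of 4 pairs, both with adjusted p = 0.13. The gene LOC281376 carries the RefSeq synonym PAI2, a name used for a plasminogen activator inhibitor. It rose from 4676, 9586, 11165 and 5719 to 9197, 22326, 19801 and 10304 (change 0.97, SE 0.14, adjusted p = 0.021).

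Among the called genes, the largest fold changes belonged to 2 transcripts with few reads in controls. TCHHL1, a relative of the S100-fused protein trichohyalin, stood at 0.958, 4.67, 15.2 and 3.05 in controls, 25 reads over the group, and 40.2, 45.8, 44.7 and 25.6 with PGF2A, 159 reads (change 3.09, SE 0.55, adjusted p = 0.0499). SCIMP, a membrane adaptor protein of immune cells, stood at 1.92, 10.3, 10.5 and 1.02 in controls and 26.8, 53.8, 25.8 and 19.7 with PGF2A (change 2.71, SE 0.38, adjusted p = 0.021). Neither pair of groups overlapped, but both genes passed the filter on counts only through samples with PGF2A. At levels this low the size of the change depends on the value added before the logarithm: with 5 in place of 0.5, TCHHL1 gave 2.14 and SCIMP gave 1.79, and both were called. SCIMP remained called without number 3, too.

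Other rises were modest. ADGRE3, an adhesion G protein-coupled receptor, changed by 0.88, CORO2A, a coronin of the actin cytoskeleton, by 0.87, PGA5, a pepsinogen, by 0.81, LOC107131204, for which no gene name is given, by 0.71, and SLITRK2, a leucine-rich repeat membrane protein, by 0.51. All 5 gave overlapping groups. ADGRE3 shows how far numbers can differ in level: its control ranged from 6.70 in number 1 to 116 in number 3, and PGF2A sample 1 at 10.5 was below 3 controls. In all, 8 of the 23 called genes had groups that did not overlap, all of them rises (among them TCHHL1, SCIMP, MMP3, NPTX2, CCND1, DUSP5 and HBEGF). Over all tested genes, 176 (1.25%) had groups that did not overlap, 97 (0.687%) above and 79 (0.559%) below the controls. The 23 were called from these same values, so a larger share among them follows from the choice.

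**Figure D2:**
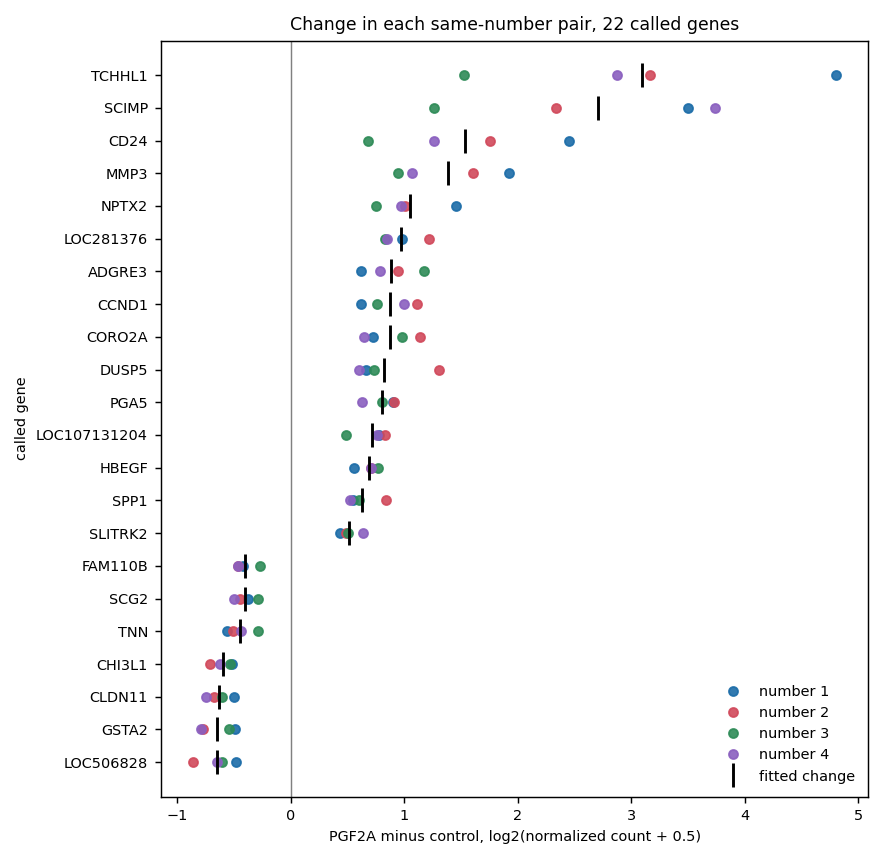
Log2 change (PGF2A minus control) of 22 of the 23 called genes in each number (coloured points) and in the fit (black bar). All points of a gene lie on 1 side of 0; the spread between numbers is widest for TCHHL1, from 1.52 in number 3 to 4.80 in number 1, and narrow for the 7 falls.

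The 7 falls were small, at -0.40 to -0.65 in the fit. Their size varied between numbers, as for TNN (-0.29 to -0.56) and LOC506828 (-0.48 to -0.86). CLDN11, a claudin of tight junctions, stood at 1057, 1062, 1756 and 1407 in controls and 748, 665, 1151 and 836 with PGF2A (change -0.63, SE 0.08, adjusted p = 0.0088). SCG2, a granin of secretory granules, stood at 7069.6, 7349, 2628 and 2168 in controls and 5448, 5386, 2144 and 1535 with PGF2A (change -0.40, SE 0.06, adjusted p = 0.026). The level of SCG2 differed far more between numbers than between treatments. GSTA2, an alpha-class glutathione transferase, stood at 356, 531, 408 and 693 in controls and 253, 311, 279 and 401 with PGF2A (change -0.65, SE 0.10, adjusted p = 0.026). FAM110B (change -0.40, adjusted p = 0.026) and LOC506828, for which no gene name is given (change -0.65, adjusted p = 0.049), complete the falls.

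GSTA2 was the 1 called member of 43 tested antioxidant and glutathione transferase genes, where 0.163% of all genes were called. Of the 43, 9 were lower and 0 higher at an unadjusted p under 0.05, against 2.89% and 3.24% of all genes, and 38 lay below 0. In 4 of 4 pairs 16 were lower, where 10.6% of all tested genes were. The median was -0.09, and -0.03 without number 4. GSTA1 was lower in 4 of 4 pairs (12850.0, 24189.6, 19335 and 10515 in controls, 8179, 12302, 13455 and 6005 with PGF2A; change -0.74, SE 0.18, adjusted p = 0.20). GSTA1 and GSTA2 are close relatives, and reads that match both could be shared out between them. The difference was -0.43 (adjusted p = 0.31) for GSTM1 and -0.25 (adjusted p = 0.23) for NQO1, a quinone reductase.

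The receptor for PGF2A itself lay lower by amounts that differed between numbers. PTGFR stood at 991, 1729.6, 1057 and 448 in controls and at 356, 596, 527 and 355 with PGF2A. It was lower in every pair, by 1.47, 1.54, 1.00 and 0.34 on the log2 scale in numbers 1 to 4, and control 4 lay below PGF2A samples 2 and 3. The fitted difference of -1.09 (SE 0.30, 95% interval -1.73 to -0.44) did not pass the threshold (adjusted p = 0.30); over the alternatives the adjusted p ran from 0.031 to 1. Of the 39 tested genes from the receptor through Gq to protein kinase C, 0 were called. At an unadjusted p under 0.05, 2 of the 39 were higher and 2 lower, against 3.24% and 2.89% of all genes. Among them, PRKCD, a protein kinase C isoform, was higher in 4 of 4 pairs (change 0.26, adjusted p = 0.20), as was RCAN1, a calcineurin regulator induced by calcium signals (0.24, adjusted p = 0.65).

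Transcripts of progesterone synthesis lay slightly lower, and none was called. STAR, which carries cholesterol into mitochondria, stood at 3167, 6824, 4335 and 1627 in controls and 2202, 4298, 3593 and 1317 with PGF2A (change -0.44, SE 0.09, adjusted p = 0.097). CYP11A1, the side-chain cleavage enzyme, gave -0.25 (SE 0.10, adjusted p = 0.67), and HSD3B1, which makes progesterone from pregnenolone, gave -0.35 (SE 0.11, adjusted p = 0.44). STAR, CYP11A1 and HSD3B1 were lower in 4 of 4 pairs. The LH receptor LHCGR was lower in numbers 1 to 3 and higher in number 4, where it went from 949.5 to 1256 (change -0.51, SE 0.30, adjusted p = 0.999). CYP17A1, the enzyme of androgen synthesis, which luteal cells express weakly, went the other way: 28.7, 143, 205 and 46.8 in controls and 117, 650.1, 342 and 97.4 with PGF2A (change 1.49, SE 0.30, adjusted p = 0.084). Over 31 tested genes of this group, 1 was higher and 4 were lower at an unadjusted p under 0.05, against 3.24% and 2.89% of all genes. Their median was -0.04. Of 38 genes of cholesterol synthesis, uptake and efflux, 0 were called, 10 were lower and 0 higher at an unadjusted p under 0.05, and the median was -0.08; FDFT1, squalene synthase, gave -0.23 (adjusted p = 0.13).

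**Figure D3:**
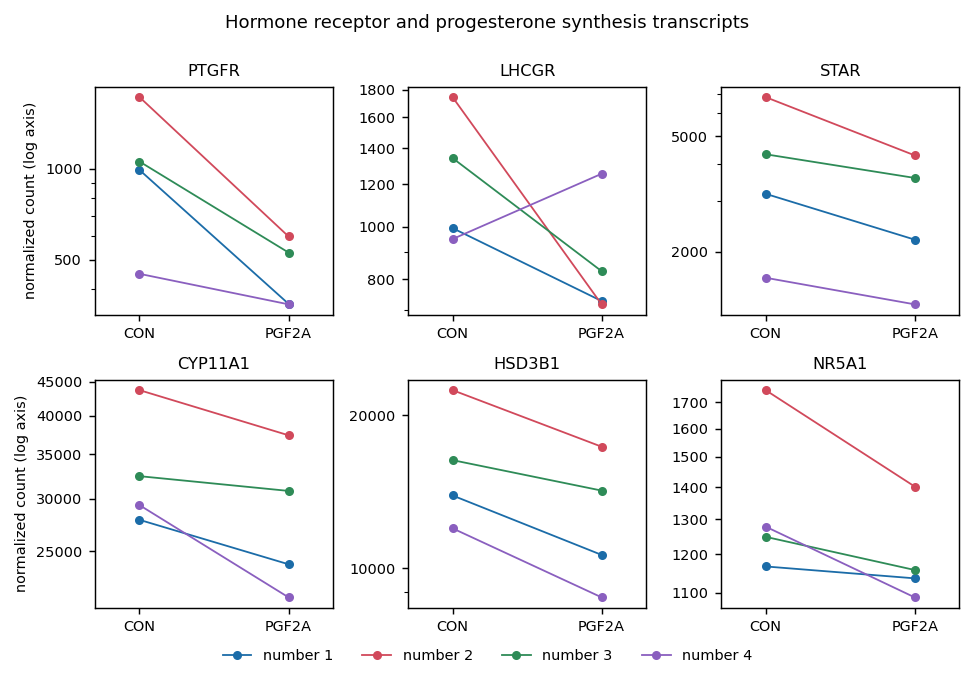
Normalized counts (log axis) of 2 receptors (PTGFR, LHCGR), 3 genes of progesterone synthesis (STAR, CYP11A1, HSD3B1) and their regulator NR5A1; each line joins the 2 samples of 1 number. PTGFR, STAR, CYP11A1, HSD3B1 and NR5A1 slope down in all 4 numbers, LHCGR in 3, and none of the 6 passed the adjusted threshold.

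In the mixed cultures, fewer cells of a type and less RNA per cell cannot be told apart. Marker genes of cell types are described here, but several are genes already given above. The steroidogenic markers all belong to the progesterone or cholesterol lists. The large luteal cell markers include PTGFR, CLDN11 and SCG2. These 2 marker sets are therefore no separate reading. Over all genes, 0.0496% were called lower and 2.89% were lower at an unadjusted p under 0.05. All 8 steroidogenic markers lay below 0 (median -0.28, 0 called, 3 lower at an unadjusted p under 0.05), and their summed level was 93655 to 146508 in controls and 75963 to 130397 with PGF2A. Of 9 tested large luteal cell markers, 2 were called lower (CLDN11, SCG2) 4 were lower at an unadjusted p under 0.05 and 7 lay below 0 (median -0.13), with sums of 21995 to 45463 and 18375 to 43025. OXT, the oxytocin gene, gave -0.08 (SE 0.11, adjusted p = 0.999). Medians were -0.15 for 12 endothelial, -0.02 for 12 fibroblast and -0.08 for 12 pericyte and smooth muscle markers, with 0 called in each. Fibroblast marker sums were 851980 to 1376578 in controls and 760706 to 1261423 with PGF2A. Of 7 tested macrophage markers, 0 were called, 2 were lower at an unadjusted p under 0.05 and 6 lay below 0 (median -0.30); the median lay below 0 in each number. Their sums were 503 to 679 in controls and 466 to 690 with PGF2A, and C1QA, C1QB, C1QC, AIF1 and MARCO averaged under 10. The part of cell composition in the changes was not tested.

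S phase and mitosis genes lay higher with 0 calls. All 35 tested genes of this list were above 0, 16 of them at an unadjusted p under 0.05, against 3.24% of all genes. In 4 of 4 pairs 22 were higher, where 1306 of all tested genes were (9.25%). The median change was 0.30; by number it was 0.11, 0.25, 0.26 and 0.62, and it was 0.21 without number 4. RRM2, a subunit of ribonucleotide reductase, stood at 223, 305, 622 and 679 in controls and 356, 624, 1074 and 1524 with PGF2A (change 0.91, SE 0.20, adjusted p = 0.13). The replication licensing genes MCM5 (change 0.54, adjusted p = 0.084), MCM2 (0.43, adjusted p = 0.10) and MCM3 (0.50, adjusted p = 0.13) were higher in 4 of 4 pairs. Controls 3 and 4 held more of these transcripts than controls 1 and 2. Of 25 G1 genes, CCND1 alone was called, where 0.163% of all genes were.

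Inflammatory and apoptosis genes gave no calls. Among 36 cytokine, chemokine and adhesion genes, 3 were higher and 4 lower at an unadjusted p under 0.05, against 3.24% and 2.89% of all genes. Of the 36, 25 lay below 0, with a median of -0.06, and 11 were lower and 4 higher in 4 of 4 pairs. The rises included IL33, an alarmin (change 0.88, adjusted p = 0.28), and IL11 (0.78, adjusted p = 0.32). The chemokines CCL2 and CXCL8 gave -0.06 and -0.02, both with adjusted p = 0.999. Of 33 apoptosis genes, 5 were higher and 1 lower at an unadjusted p under 0.05, among them the survival gene MCL1 (change 0.19, adjusted p = 0.61) and PMAIP1, which encodes the pro-death protein NOXA (0.33, adjusted p = 0.63). PTGS2, the inducible cyclooxygenase, was higher in 4 of 4 pairs (change 0.41, adjusted p = 0.41). HPGD, which degrades prostaglandins, was at a mean of 16.9 ± 3.73 (SD, n = 4) in controls and 17.4 ± 2.61 (SD, n = 4) with PGF2A.

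**Figure D4:**
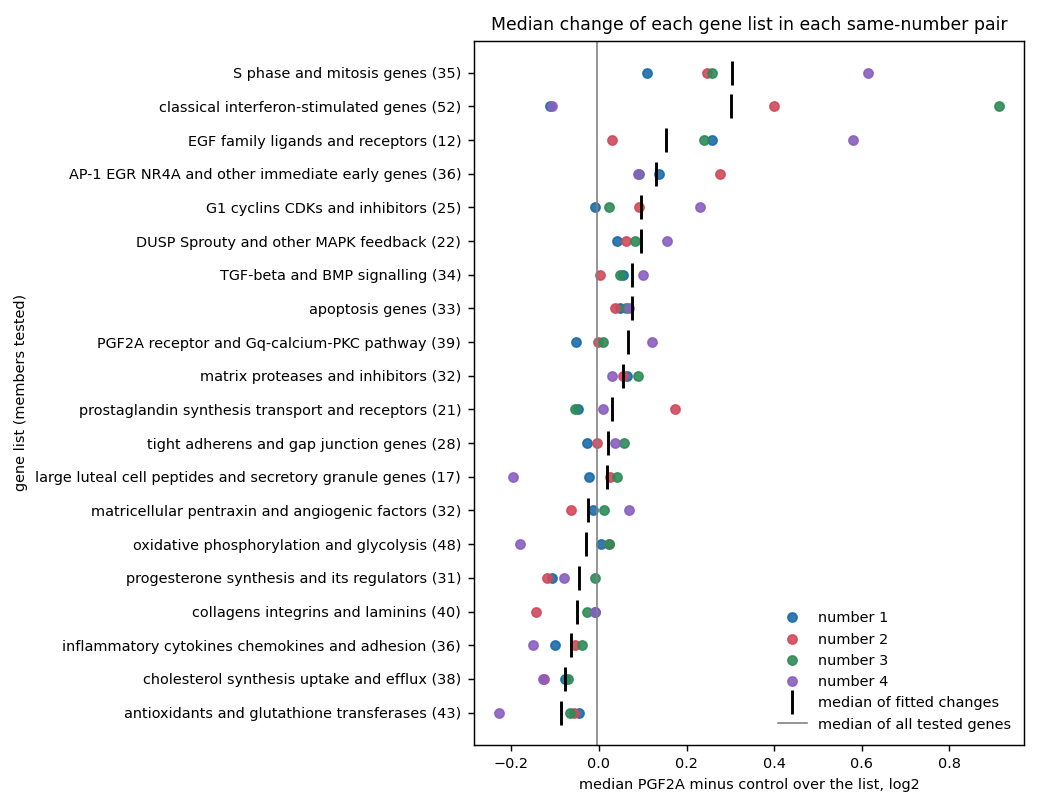
Median log2 change (PGF2A minus control) of the tested members of 20 gene lists in each number (coloured points) and of the fitted changes (black bar); the grey line is the median of all tested genes, -0.004. The S phase and mitosis list lies right of the line in all 4 numbers, while the interferon-stimulated list ranges from -0.11 to 0.91.

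The interferon-stimulated genes differed most between numbers among the 20 gene lists. Of 52 tested, 0 were called and 46 lay above 0, with a median of 0.30, but by number the medians were -0.11, 0.40, 0.91 and -0.11. Without number 3 the median was 0.06. IRF7, the interferon-response transcription factor, went from 897 to 1770.0 in number 3 and from 531 to 534 in number 4 (change 0.49, adjusted p = 0.84). No interferon had been added to these 8 samples.

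The change from control to PGF2A differed between the 4 numbers. With 1 library per group in each number, a different response and noise between libraries cannot be told apart. Over all tested genes the SD of the log2 change within a pair was 0.332, 0.354, 0.336 and 0.427 in numbers 1 to 4, and the profiles of 2 numbers correlated at Pearson r of 0.05 to 0.22 across 14122 genes, which are not independent replicates. Among the 23 called genes, number 2 had the largest response in 10 and the smallest in 0, whereas number 3 had the smallest in 10 and number 1 in 8. The median size of the response over the 23 was 0.62, 0.91, 0.73 and 0.71 in numbers 1 to 4. These genes were called from the same values, so the sizes are a description.

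The samples with IFNT gave a second reading of the same agent. IFNT+PGF2A against IFNT shares no library with PGF2A against control, although the numbers and the estimate of the spread are common to both. Each gene thus has the same SE in both comparisons. Genes called through a small SE keep it here, so their p-values are not independent of the first comparison. The share over all genes is then no fair measure for them. In it 99 genes were called (0.701%), 78 higher and 21 lower. All 23 genes called for PGF2A alone had the same sign there, 22 of them at an unadjusted p under 0.05, where 9.77% of all genes had one, and 21 moved the same way in all 4 pairs. Over all tested genes, 8.84% were higher and 9.13% lower in 4 of 4 of those pairs. Called in both were 16 genes, 13 higher and 3 lower, which is 69.6% of the 23 and 16.2% of the 99. These counts depend on the fit: on the 8 samples with IFNT alone 1 gene was called and 0 in both, and without number 1 or number 2 the counts were 0.

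CCND1 rose in all 4 numbers there too, with 524, 412, 578 and 467 in IFNT and 946, 1238, 929.6 and 959 in IFNT+PGF2A (change 1.04, SE 0.12, adjusted p = 0.0035). MMP3 (change 1.06, adjusted p = 0.024), DUSP5 (0.75, adjusted p = 0.016), HBEGF (0.86, adjusted p = 0.0075), CD24 (1.99, adjusted p = 0.0094), TCHHL1 (3.12, adjusted p = 0.024) and SCIMP (2.51, adjusted p = 0.013) rose with IFNT too. CLDN11 (-0.52, adjusted p = 0.012), GSTA2 (-0.66, adjusted p = 0.014) and SCG2 (-0.34, adjusted p = 0.032) were the 3 falls called in both. CHI3L1, SPP1, TNN, CORO2A, FAM110B and LOC506828 were among those not called with IFNT.

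**Figure D5:**
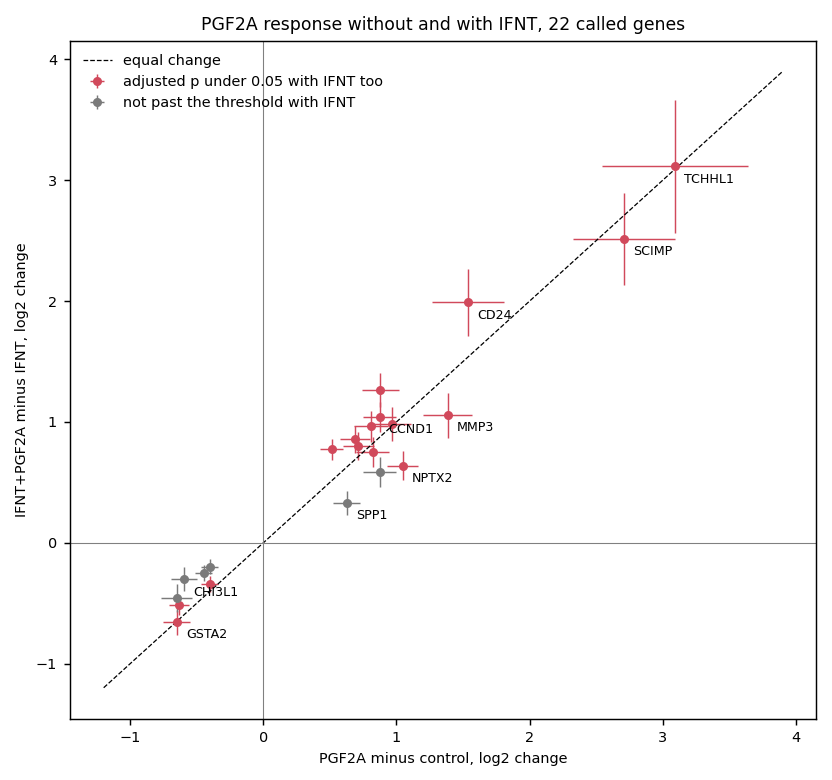
Log2 change of 22 of the 23 called genes with PGF2A alone (horizontal axis) and with PGF2A added to IFNT (vertical axis), with bars of 1 SE; red points were called in both, and the dashed line marks equal changes. All 22 points lie on the same side of 0 on both axes. CD24, at 1.54 and 1.99, lies above the line and NPTX2, at 1.05 and 0.64, below it. Their starting levels differed, with means of 110 in CON and 52 in IFNT for CD24, and 388 and 1371 for NPTX2.

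Whether the response differed with IFNT was tested as an interaction, and limma called 0 of 14122 genes (0.0%; smallest adjusted p 0.9997), with 219 (1.55%) at an unadjusted p under 0.05; edgeR and DESeq2 also called 0. The interval for CCND1 was -0.20 to 0.54 around a difference of 0.17, and for CD24 -0.38 to 1.29 around 0.45, so equal responses and differences of those sizes cannot be told apart. At an unadjusted p under 0.05, 4 of the 23 differed, and the differences for NPTX2, FAM110B and TNN were -0.41, 0.21 and 0.20, each toward 0. The 23 were called from PGF2A minus control, which is a part of the interaction. A shift toward 0 is therefore partly built in, and no conclusion is drawn from it. The S phase and mitosis genes had a median of 0.10 when PGF2A was added to IFNT; MCM3 gave -0.04 there against 0.50 alone, and STAR gave -0.06 against -0.44. The limma interaction of these genes had an unadjusted p of 0.0040 for MCM3 and 0.010 for STAR and an adjusted p of 0.9997 for both. MCM3 was named by its small p in PGF2A against control, so the same limit holds for it.

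The authors' deposited table of PGF2A against control listed 5 genes past the same threshold, each of them higher, among them CCND1, PCDH11X, TCHHL1 and TCIM. Of these, CCND1 and TCHHL1 were among the 23. PCDH11X, a protocadherin, had a log2 fold change of 1.61 and an adjusted p of 5.4e-05 in the authors' deposited table. In the paired limma fit its change was 1.64 (SE 0.34, adjusted p = 0.098), from 79.5, 70.0, 82.8 and 37.6 in controls to 263, 228, 184 and 151 with PGF2A, without overlap.

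Near the threshold the order of genes was close. Just inside were TCHHL1 and CD24 at an adjusted p of 0.0499, and just outside REEP1, CCN6, ALOX15B, HES4 and ADAMTS1 at 0.0554 and FBXO10 at 0.057. ALOX15B, a lipoxygenase, stood at 1.92, 2.80, 9.52 and 4.07 in controls and 20.1, 36.8, 15.9 and 13.8 with PGF2A. It would not have passed the filter on counts without the samples with PGF2A, where it is high. HES4, a transcriptional repressor, had a change of 0.62. CCN6 had 25 reads over the 4 controls and 3 over the 4 PGF2A samples, too few for a fold change.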

How the data were processed

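RNA of 16 samples, 4 per group, was sequenced as 100 bp read pairs. Per the submitters' processing notes, the tools were RSEM 1.2.8, HISAT2 2.0.4, Bowtie2 2.2.5 and, without a version, DESeq2. Strand use, genome build and annotation: not given in the sources used here; so reads of overlapping or antisense genes and of near-identical copies cannot be separated. The deposited values of the 16-sample table are a signal per gene: as the values show, reads of a gene over the size factor of its sample, and 100% were whole reads within 0.05 reads. For PGF2A samples 2 and 3 the reads were recovered from the authors' table of control and PGF2A. The authors' deposited log2 fold changes, p-values and adjusted p-values were used only where named. Gene IDs matched the RefSeq table (ARS-UCD2.0) for 17768 genes and did not for 937; 25 names turned into dates were restored.

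The test was limma 3.58.1 (R 4.3.3) with an intensity trend on log2(normalized count + 0.5), all 16 samples sharing 1 estimate of the spread, with group and replicate number as terms and Benjamini-Hochberg adjustment over 14122 genes. edgeR 4.0.16 and DESeq2 1.42.0 on recovered reads were alternatives. The fits were also run on simulated data, whose outcome is not reported here and is not used as support. The labels do not say what a replicate number stands for, and the p-values cover only how these samples vary among themselves, which may be technical. The pairing comes from the data: deviations from the group mean correlated at 0.641 to 0.709 between the control and PGF2A sample of 1 number and at -0.458 to -0.101 between different numbers. Deviations sum to 0 within a group, so the negative values largely follow from the positive ones and add no separate evidence. Of 16 samples, 16 correlated best with a sample of their own number.

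Named genes are those called, the 12 largest rises and 12 largest falls with an unadjusted p under 0.05 and 1 direction in 4 of 4 pairs, the 4 members of each list with the smallest p, and a fixed set of luteal and response genes. TCIM, HES4 and FBXO10 were added after their values were seen. The comparison, the members and the lists were chosen with earlier results of these data known. Alternatives changed the replicate term, samples in the fit, pseudocount, filter, scaling, variance model and test, or left out 1 number. Precision is limited by 4 samples per group at 23786067 to 25906276 reads each. Promoter and protein sequences were not analysed here. Some called or named genes are counted but not reported here.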

Additional observations from a re-analysis of the deposited data

Results flagged for a closer look

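Among 246 groups of 4 samples (123 genes in control and PGF2A samples), 14 had a sample far from the other 3, and chance flags about 1 in 20. High control samples were TMPRSS2 in number 1 (1.92, others at most 1.02), OXT in number 2 (31176, others at most 16595), ITGA7 in number 4 (1189, others at most 433), PTGR1 in number 1 (918, others at most 550.0) and CCN6 in number 2 (12.1, others at most 4.07). TMPRSS2 had only 5 reads over the 4 controls, so its flag lies at the floor of the counts.

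Low control samples were MCL1 in number 4 (6712, others at least 7889.8), COX7C in number 3 (1011, others at least 2575) and CGN in number 1 (534, others at least 709). COX7C was low in PGF2A sample 3 as well, at 963, and OXT was high in PGF2A sample 2, at 32478.

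High PGF2A samples were BMP4 in number 2 (1052, others at most 917), PHLDA1 in number 2 (1678, others at most 1295), COX6C in number 2 (1960.3, others at most 1744) and CCN6 in number 3 (2.98, others at 0). Low PGF2A samples were REEP1 in number 4 (28.5, others at least 80.5) and GADD45B in number 3 (390.4, others at least 573).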

How the results depend on the processing

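The 23 calls of PGF2A against control became 0 with no replicate block, 81 on the 8 control and PGF2A samples only (22 of the 23 among them), 8 without the intensity trend (7 shared) and 102 in DESeq2 (22 shared). The other settings with all numbers gave 20 to 28: pseudocounts 1 and 5, no filter, a filter at 50, TMM scaling, robust shrinkage and edgeR (28, 22 shared). Leaving out 1 number gave 0 to 96. The 99 calls with IFNT became 1 with no replicate block, 1 on 8 samples only, 59 without the trend and 205 in DESeq2, and 0 to 334 with a number left out. The 16 genes called in both became 0, 0, 5 and 66 under the same settings, and 0 to 72 with a number left out. The interaction stayed at 0 calls in each alternative. The cause of these differences was not tested.

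Of 125 named genes, 0 turned direction under the settings that keep all numbers. Without number 4, HPGD gave -0.0126 (0.12 at most with another number left out) and CCL2 0.0160 (-0.10 at least), both far from the threshold. Leaving out the replicate block ended all 23 calls and changed no other named gene's call; of the 23, 16 were lost without the trend, 5 without the filter, 3 with the filter at 50 (TCHHL1 and SCIMP, which that filter removes, and CD24), 2 with pseudocount 5 and 1 each on 8 samples only, with robust shrinkage, edgeR and DESeq2. Genes under about 10 counts, such as TCHHL1 and CCN6, are limited by depth.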
